A study of Mus musculus with 8 samples.

Results

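The family of miR-34 and miR-449 is a group of microRNAs (miRNAs) that share a seed, the bases at the 5′ end that pair with target messenger RNAs. On the mouse miRNA array used here 7 of 611 mouse miRNA names belonged to it: miR-34a, miR-34b-3p, miR-34b-5p, miR-34c, miR-449a, miR-449b and miR-449c. They were taken by name, leaving out passenger strands marked with an asterisk. Lung RNA came from female C57BL/6 mice (C57BL/6 Bom Tac in the series title) that were pregnant during the exposure. Printex 90 mice received carbon black nanoparticles in nanopure water into the trachea, as 4 instillations of 0.067 mg on days 7, 10, 15 and 18 of gestation (0.268 mg in total), and vehicle control mice received nanopure water. The lungs were collected at weaning, 26 to 27 days after the exposure. Each group had 4 one-colour arrays; the labels give no age and leave unsaid whether every array had its own mouse. The p-values therefore cover only the spread among these arrays, which may be technical. The comparison asks which of these miRNAs differed in the lungs of the dams at weaning.

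In the airways, miR-34b, miR-34c and the miR-449 miRNAs are made in large amounts by multiciliated cells, whose beating cilia clear mucus. There they help precursor cells leave the cell cycle and build the basal bodies from which cilia grow, and mice that lack both miR-449 and miR-34b/c have airway cells with few cilia. miR-34a is found in many cell types, and its gene and the shared miR-34b/c transcript are known targets of the tumour suppressor p53. No other marker of multiciliated cells was used here, so the link of these signals to that cell type was not tested.

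All 8 arrays shared a slide. Row 1 of it held the controls and row 2 the exposed lungs, which means that slide row and group cannot be told apart. An array detected 248 to 283 mouse miRNAs. The test covered the 268 detected on at least 4 arrays, and 240 were detected on all 8. Each signal was divided by its array's 75th percentile, which ran from 580.8 to 804.7 intensity units before scaling. A signal of 1 therefore equals the 75th percentile of the miRNAs detected on all arrays. Each miRNA has its own probes, so signals compare arrays, not the abundance of different miRNAs.

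The mature sequences show what unites and separates the members. RefSeq (GRCm38.p6) held those of 5 of the 7 members and of the passenger strand miR-34c*. Mature sequences of miR-34c and miR-449b were missing, so their absence from the seed counts below does not mean that they lack the seed. They are written 5′ to 3′ with the seed, bases 2 to 8, in capitals. An array name without an asterisk or arm was taken as the 5p arm.
miR-34a: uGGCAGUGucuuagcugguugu
miR-34b-5p: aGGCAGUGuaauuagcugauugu
miR-449a: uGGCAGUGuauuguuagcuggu
miR-449c: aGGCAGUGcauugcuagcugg
miR-34b-3p: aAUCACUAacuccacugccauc
miR-34c*: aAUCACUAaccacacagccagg
Of 1679 mouse mature sequences in that table, 4 carried GGCAGUG at bases 2 to 8 (0.238%), and these were the 5p arms of miR-34a, miR-34b, miR-449a and miR-449c. The 3p arms of miR-34b and miR-34c carried the seed AUCACUA, shared by no other sequence in the table. miR-34b-3p met the naming rule of the family but does not have its seed.

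Compared base by base from the 5′ end without gaps, over the whole length with the seed included, miR-449a and miR-449c were identical at 18 of 21 bases, miR-34a and miR-449a at 15 of 22, and miR-34b-5p and miR-449a at 10 of 22. After the seed alone, miR-449a and miR-449c were identical at 11 of 13 bases and miR-34a and miR-449a at 7 of 14. A comparison without gaps misses stretches that are shared at shifted positions. The 3p arms miR-34b-3p and miR-34c* were identical at 17 of 22 bases, the first 10 included. RefSeq places miR-34a-5p at chr4:150068473-150068494 on the plus strand. miR-34b-5p lies at chr9:51103610-51103632 and miR-34b-3p at chr9:51103574-51103595 on the minus strand, and 451 bases separate the hairpins of miR-34b and miR-34c. The 5p arms of miR-449a and miR-449c lie at chr13:113037549-113037570 and chr13:113036008-113036028 on the plus strand. All 3 miR-449 genes fall within the span of Cdc20b, a protein-coding gene that hosts them in an intron.

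Of the 7 members 5 were detected on all 8 arrays and 2, miR-449b and miR-449c, on none. Every probe of the 5 detected members was well above background on all arrays. Of the spots of miR-449b and miR-449c, 0% were well above background, and their summed scaled signals ran from -0.00884 to -0.00096 and from -0.00889 to 0.00162. Over the arrays, the dimmest detected mouse miRNA ran from 0.0178 to 0.0271, so both lay below what the arrays could show in either group, and no difference was detectable for them.

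Like miR-34c and miR-34a, miR-34b-5p had a signal above the 75th percentile on every array. It measured 3.34, 3.55, 3.95 and 2.56 on vehicle control replicates 1 to 4, and 4.03, 3.11, 4.83 and 3.04 on Printex 90 replicates 1 to 4. The groups overlapped: Printex 90 replicates 1 and 3 lay above all controls, and replicates 2 and 4 lay below 3 of the 4. The means were 3.75 ± 0.85 (SD, n = 4) after Printex 90 and 3.35 ± 0.583 (SD, n = 4) in controls, a 1.11-fold difference with a 95% interval of 0.812 to 1.53. The log2 difference was 0.15 (SE 0.19, limma adjusted p = 0.768).

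miR-34c, cut from the same transcript as miR-34b, followed the same order of arrays at both ends. It measured 1.74, 1.73, 1.91 and 1.28 on the 4 controls and 1.88, 1.60, 2.38 and 1.49 on the 4 Printex 90 arrays. Vehicle control replicate 4 was again the lowest and Printex 90 replicate 3 the highest, and the groups overlapped. The difference was 1.1-fold (95% interval 0.818 to 1.48, log2 difference 0.14, SE 0.18, limma adjusted p = 0.768).

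The 3p arms had smaller differences between the groups. miR-34b-3p, from the other arm of the miR-34b hairpin, measured 0.233, 0.243, 0.27 and 0.193 in controls and 0.252, 0.231, 0.232 and 0.198 after Printex 90. The Printex 90 values lay within the range of the controls, with a log2 difference of -0.03 (SE 0.12, limma adjusted p = 0.918). The passenger strand miR-34c* measured 0.119 ± 0.0206 (SD, n = 4) in controls and 0.121 ± 0.0214 (SD, n = 4) after Printex 90, with a log2 difference of 0.03 (SE 0.17, limma adjusted p = 0.934). The direction of both depended on the scaling: miR-34b-3p was 0.12 with quantile normalization, and miR-34c* was -0.04 without scaling.

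miR-449a had the largest difference of the tested members and the widest spread. It measured 0.185, 0.256, 0.32 and 0.149 in controls and 0.445, 0.205, 0.265 and 0.235 after Printex 90. Printex 90 replicate 1 alone lay above all controls. The other 3 Printex 90 arrays lay within the control range. The difference was 1.26-fold with a 95% interval of 0.745 to 2.13 (log2 difference 0.33, SE 0.32, limma adjusted p = 0.767), and without Printex 90 replicate 1 the log2 difference was 0.10 (limma adjusted p = 0.985). Over all alternatives it ran from 0.10 to 0.52 and the limma adjusted p from 0.502 to 0.985.

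miR-34a, the member also made outside the airways, was almost level in controls. It measured 1.41, 1.36, 1.33 and 1.36 on the 4 controls, a 1.07-fold range. After Printex 90 it measured 1.14, 1.43, 1.53 and 1.32, so that replicates 1 and 4 lay below all controls and replicates 2 and 3 above them. All 4 exposed arrays lay outside the narrow control range, on both sides of it. The means were 1.35 ± 0.167 (SD, n = 4) after Printex 90 and 1.37 ± 0.0357 (SD, n = 4) in controls, a 0.984-fold difference (95% interval 0.852 to 1.14). The log2 difference was -0.02 (SE 0.088, limma adjusted p = 0.918). The direction changed with the scaling, to 0.03 on the log2 scale with the 75th percentile taken over all mouse miRNAs.

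**Figure D1:**
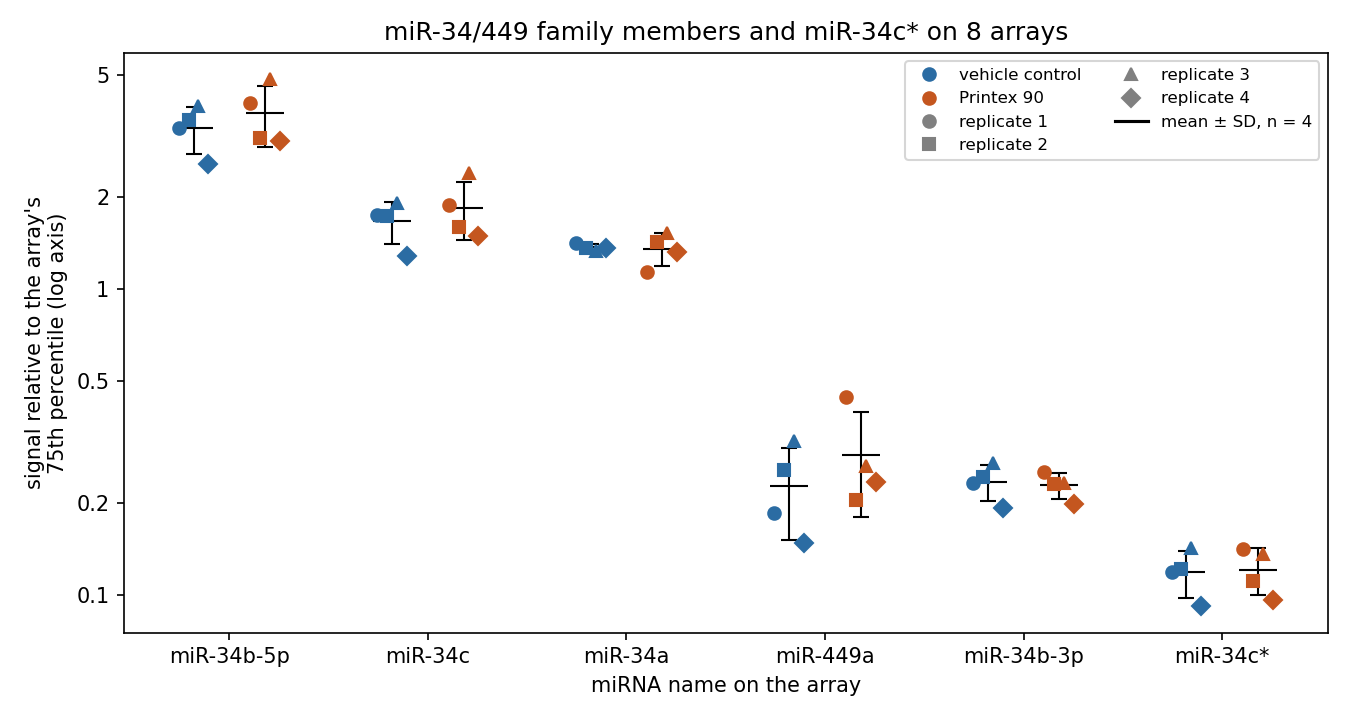
Signal of each detected member and of miR-34c* relative to the array's 75th percentile, on a log axis. Points are arrays, coloured by group and shaped by replicate number, and black lines give the mean ± SD of 4 arrays. The groups overlap for all 6 names, vehicle control replicate 4 is the lowest array for 5 of them, and miR-449a on Printex 90 replicate 1 is at 0.445.

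No tested member passed an adjusted p of 0.05 in limma (0 of 5), where 0% of all 268 tested miRNAs did. At an unadjusted p under 0.05 there were 0 of 5 members, against 15 of 268 miRNAs (5.6%). Groups that did not overlap were seen for 0 of 5 members and for 1.49% of all tested miRNAs. By direction, 3 tested members had a higher mean after Printex 90 and 2 a lower one, with a median log2 difference of 0.14, beside a median of -0.05 over all tested miRNAs. Of all 268 tested miRNAs, 85 had a higher mean, 176 a lower one and 7 no difference. The family median was 0.0045 without Printex 90 replicate 3 and 0.018 without vehicle control replicate 4. The exact permutation test over the 70 assignments of arrays gave 2-sided p-values from 0.343 for miR-449a to 0.857 for miR-34a among the members. Both probes of a member gave the same direction except for miR-34a, whose probes differed by -0.06 and 0.003 on the log2 scale. A p that misses the threshold does not show equal levels: the 95% intervals of the fold difference ran from 0.852 to 1.14 for miR-34a, 0.806 to 1.18 for miR-34b-3p, 0.818 to 1.48 for miR-34c, 0.812 to 1.53 for miR-34b-5p and 0.745 to 2.13 for miR-449a.

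**Figure D2:**
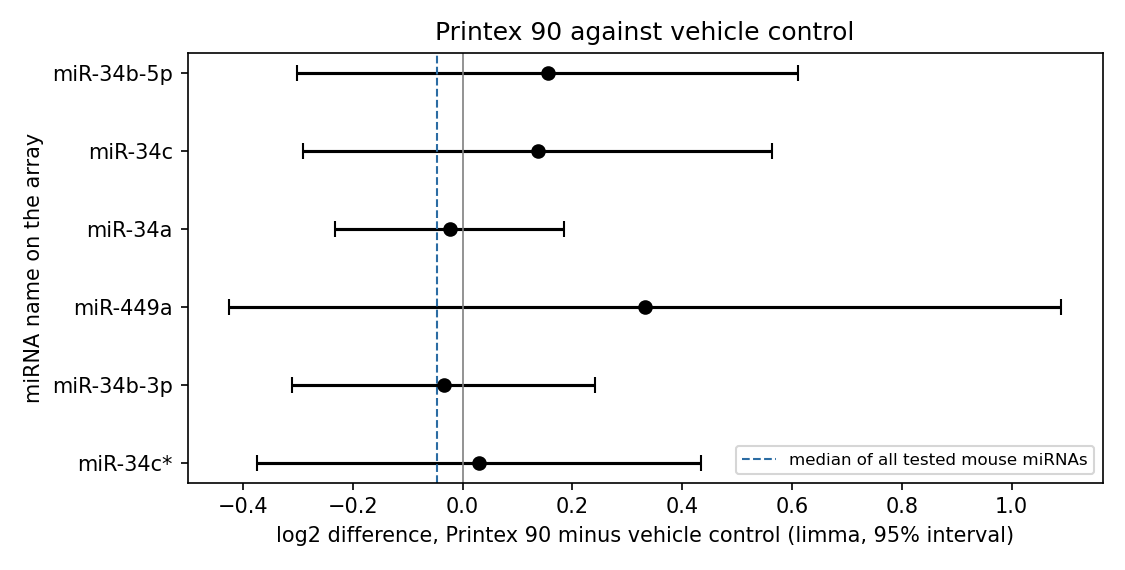
Log2 difference, Printex 90 minus vehicle control, with the 95% interval from limma, for the 5 detected members and miR-34c*. The dashed line is the median of all tested miRNAs, -0.05, and every interval includes 0, the widest being that of miR-449a.

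Over all 8 arrays some members varied more than most miRNAs on the scaled values. From the lowest to the highest array miR-449a spanned 2.99-fold, miR-34b-5p 1.89-fold and miR-34c 1.86-fold. These ranges were the 4th, 16th and 17th widest of the 240 miRNAs detected on all arrays, whose median range was 1.31-fold. miR-34b-3p spanned 1.40-fold and miR-34a 1.34-fold, closer to that median. The scaling took part in this. Vehicle control replicate 4, lowest for miR-34b-5p, had the highest 75th percentile (804.7), and Printex 90 replicate 3, highest for miR-34b-5p, the lowest (580.8). Without scaling the same arrays were lowest and highest, but miR-34b-5p spanned 1.36-fold and miR-34c 1.34-fold, under the median unscaled range of 1.45-fold. miR-449a still spanned 2.34-fold, the 8th widest of 240.

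Spots of one probe on one array differed by a mean coefficient of variation of 4.01% for miR-34b-5p, 5.11% for miR-34c, 5.13% for miR-34a, 5.62% for miR-449a and 9.40% for miR-34b-3p. The log2 ratio between the paired probes of miR-449a had an SD of 0.11 over the arrays, and the SD of miR-449a within groups was 0.49. Both its probes thus moved together from array to array. For miR-34b-5p the corresponding SDs were 0.02 and 0.29. Some signals were dim: miR-449a, miR-34b-3p and miR-34c* had group means between 0.119 and 0.287. Of the 39 virus names on the array, 4 were detected on any array. The brightest of them, mghv-miR-M1-2, was detected on all 8, at 0.204 to 0.27, and its level does not compare with that of other probes.

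Ratios of 2 miRNAs within an array do not depend on the scaling between arrays. The ratio of miR-34b-5p to miR-34c, neighbours on chromosome 9, varied by 1.11-fold over the 8 arrays. Of 28680 pairs among the 240 miRNAs detected on all arrays, 2.63% had a narrower ratio, and the median pair varied by 1.45-fold. The ratios of miR-34c* to miR-34c, to miR-34b-5p and to miR-34b-3p varied by 1.31-fold, 1.28-fold and 1.23-fold, also under that median. Some ratios between clusters were wider: 2.01-fold for miR-449a and miR-34b-5p, 1.88-fold for miR-34a and miR-34b-5p, and 3.58-fold for miR-34a and miR-449a. That of miR-34a and miR-34b-3p, also between clusters, varied by 1.57-fold. The members from chromosome 9 were not all alike, since the ratio of miR-34b-5p to its own 3p arm varied by 1.56-fold. Printex 90 replicate 3 stood 0.46 log2 units above the mean of the arrays for that ratio and 0.26 above it for miR-34c over miR-34c*, the highest array for both. The part of probes of one arm binding the similar arm, such as miR-34b-3p and miR-34c* with 17 of 22 bases identical, was not tested. This holds for miR-34b-5p and miR-34c too, whose sequences could not be compared because that of miR-34c was missing. Their narrow ratio may therefore not come from separate measurements.

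**Figure D3:**
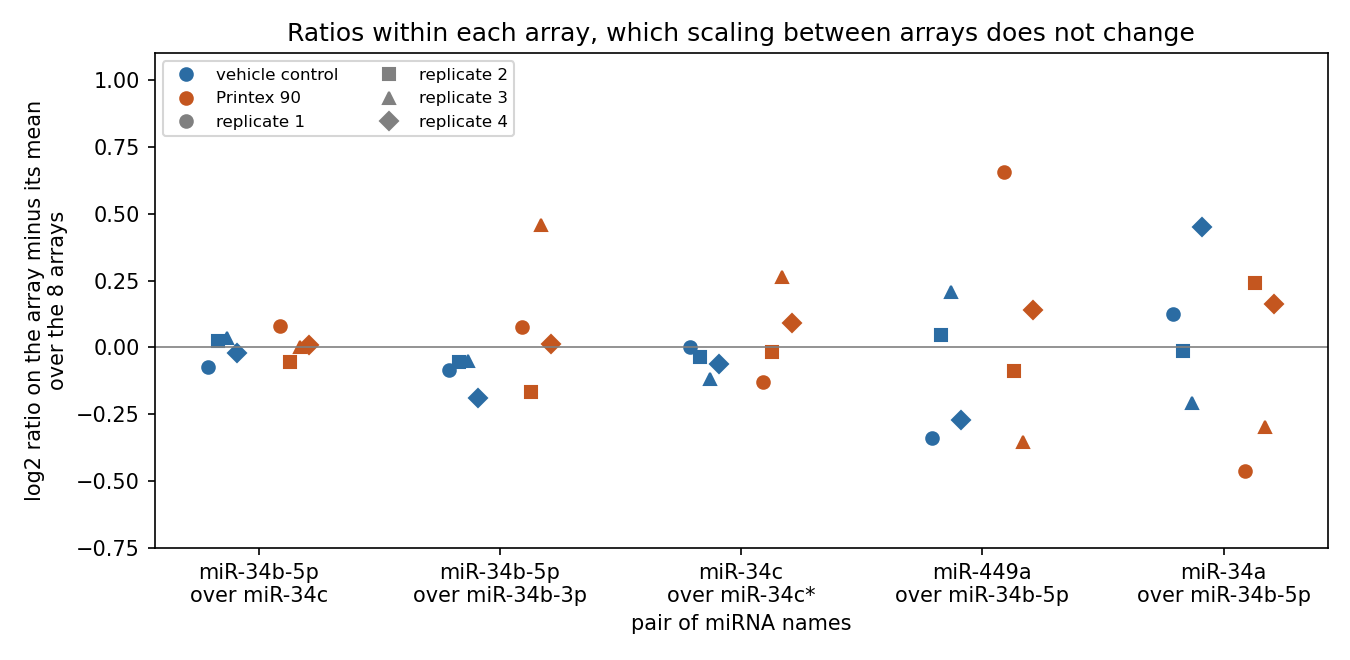
Log2 ratio of 5 pairs of names on each array, minus that pair's mean over the 8 arrays; points are coloured by group and shaped by replicate number. The ratio of miR-34b-5p to miR-34c stays between -0.07 and 0.08, and that of miR-449a to miR-34b-5p reaches 0.66 on Printex 90 replicate 1.

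No ratio passed a test between the groups. Over 6 ratios tested with exact permutation tests, the lowest 2-sided p was 0.2, for miR-34b-5p over miR-34b-3p (log2 difference 0.19), and the Benjamini-Hochberg adjusted p-values ran from 0.651 to 0.686. For miR-34b-5p over miR-34c the groups differed by 0.02. For miR-449a over miR-34b-5p they differed by 0.18, with within-group SDs of 0.26 in controls and 0.43 after Printex 90.

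Correlations of the log2 signals over the 8 arrays were computed for the 10 pairs of detected members. miR-34b-5p and miR-34c had a Pearson r of 0.99 (exact permutation p = 0.000174, adjusted p = 0.00174) and a Spearman rho of 0.95 (exact permutation p = 0.00114, adjusted p = 0.0114). It was 0.96 without the 2 arrays farthest from the median of miR-34b-5p, 0.99 with the group means removed, and 0.94 without scaling. This was the only pair past an adjusted p of 0.05. Within a group 4 arrays are too few to test a correlation.

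miR-449a, whose genes lie on another chromosome, had an r of 0.73 with miR-34b-5p (exact permutation p = 0.0423, adjusted p = 0.111; rho 0.83, exact permutation p = 0.0154, adjusted p = 0.0764). It was 0.84 without the 2 farthest arrays and 0.48 without scaling. With miR-34c the r of miR-449a was 0.62 (exact permutation p = 0.0951, adjusted p = 0.155; rho 0.74, exact permutation p = 0.0458, adjusted p = 0.0764). It was 0.66 without the 2 farthest arrays and 0.20 without scaling. miR-34a did not share this pattern: its r was 0.05 with miR-34b-5p (exact permutation p = 0.905, adjusted p = 0.905; rho 0.12, exact permutation p = 0.793, adjusted p = 0.793) and -0.61 with miR-449a (exact permutation p = 0.108, adjusted p = 0.155; rho -0.36, exact permutation p = 0.389, adjusted p = 0.556). The r of miR-34a and miR-449a depended on which arrays were kept. Without Printex 90 replicate 1 it was -0.027 (exact permutation, adjusted p = 0.954). Without Printex 90 replicate 3 it was -0.81 (exact permutation, adjusted p = 0.0563), and without both of them -0.47. Without scaling, with all 8 arrays, it was -0.94 (exact permutation, adjusted p = 0.00384).

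The arms of one hairpin gave a split result. miR-34b-3p had an r of 0.71 with miR-34b-5p (exact permutation p = 0.0475, adjusted p = 0.111; rho 0.74, exact permutation p = 0.0458, adjusted p = 0.0764), but it was 0.23 without vehicle control replicate 4 and Printex 90 replicate 4, and -0.15 without scaling. Without vehicle control replicate 4 alone the r was 0.52, and without Printex 90 replicate 4 alone 0.69. The r thus depended on which arrays were kept. It was 0.72 with the 75th percentile over all mouse miRNAs, 0.74 with quantile normalization, 0.79 in the authors' deposited table, 0.87 with normexp (exact permutation, adjusted p = 0.0181) and 0.92 without Printex 90 replicate 3 (exact permutation, adjusted p = 0.00926). miR-34c* and miR-34c had an r of 0.88 (exact permutation p = 0.00179, adjusted over 5 pairs p = 0.00298; rho 0.90, exact permutation p = 0.00456, adjusted p = 0.00761), 0.99 without the 2 farthest arrays, and 0.57 without scaling (exact permutation, adjusted p = 0.18). This was not particular to the hairpin. The r of miR-34c* was 0.90 with miR-34b-5p and 0.93 with miR-34b-3p (exact permutation, adjusted p = 0.00298 for each). With miR-449a, from another chromosome, it was 0.79 (exact permutation, adjusted p = 0.0235), and with miR-34a -0.16 (exact permutation, adjusted p = 0.73). Without scaling the first 3 were 0.62, 0.66 and 0.55 (exact permutation, adjusted p = 0.18 for each).

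**Figure D4:**
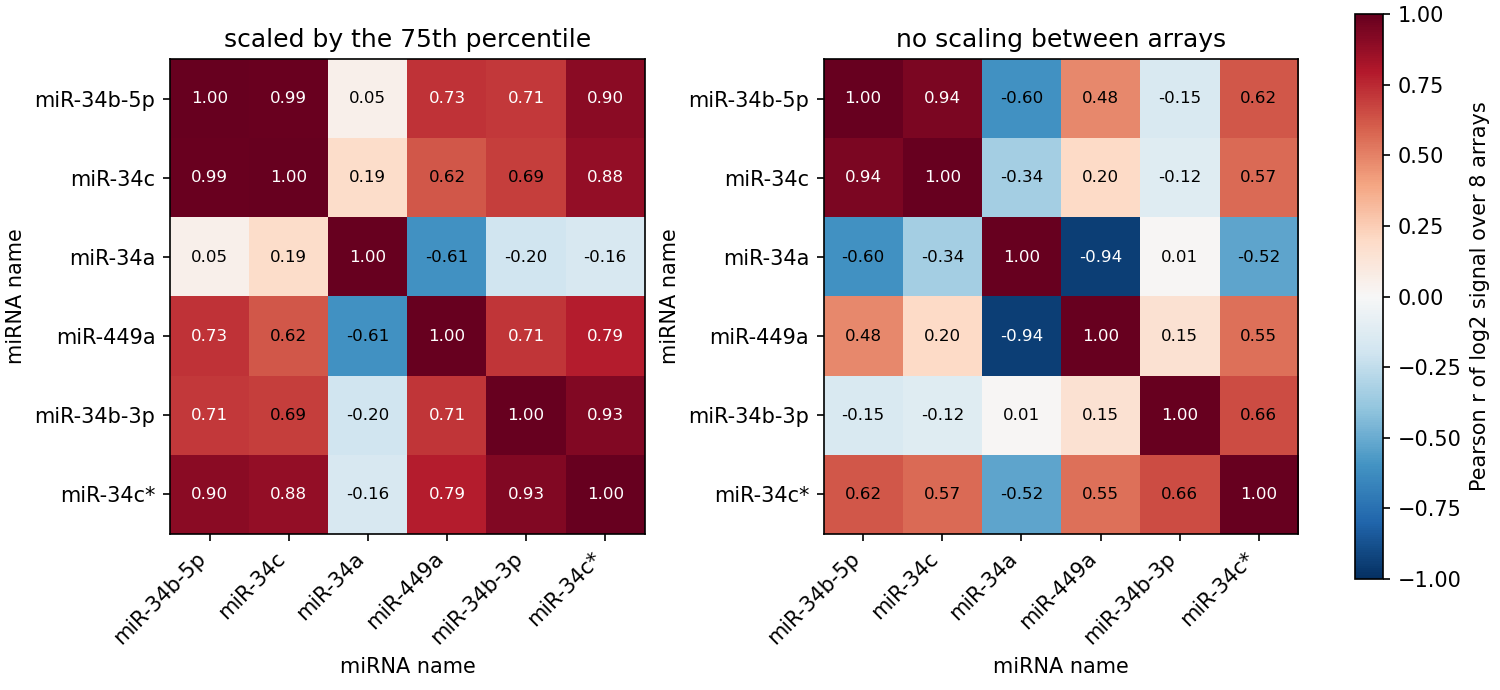
Pearson r of the log2 signals over 8 arrays for each pair of names, with signals scaled by the 75th percentile (left) and with no scaling between arrays (right). miR-34b-5p and miR-34c stay at 0.99 and 0.94, while miR-34b-5p and miR-34b-3p go from 0.71 to -0.15.

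Outside the family, the miRNAs most alike in pattern were found by the highest Pearson r among 234 miRNAs detected on all 8 arrays, as a description. For miR-34c they were miR-872 (0.97), miR-200a (0.95) and miR-429 (0.94), and for miR-34b-5p miR-872 (0.96), miR-139-5p (0.93) and miR-429 (0.90). miR-200a and miR-429 belong to the miR-200 family, which keeps epithelial cells epithelial, and both are on the epithelial list described next. For miR-449a they were miR-193b (0.93), miR-1224 (0.89) and miR-149 (0.87), for miR-34a miR-582-5p (0.96), let-7g (0.92) and miR-99b (0.90), and for miR-34b-3p miR-1895 (0.92), miR-709 (0.89) and miR-466f-3p (0.89). For miR-34b-5p and miR-34c the r between them, 0.99, was above that with any outside miRNA. For miR-34b-3p the same held of miR-34c* (0.93). The points share the array's scaling factor, and 5% of all pairs of detected miRNAs had an r above 0.87.

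Markers of airway and alveolar epithelium were present: 12 of 12 names were detected on some array and 10 on all. Of the 11 tested, 8 had a higher mean after Printex 90 and 2 a lower one, around a median of 0.04 on the log2 scale, and limma called 0 (1 at an unadjusted p under 0.05: miR-31, log2 difference 0.20, SE 0.067, limma adjusted p = 0.706, named after its value was seen). Their summed signal ran from 8.05 to 9.0 in controls and from 8.42 to 10.0 after Printex 90. Over the arrays the summed signal had an r of 0.95 with miR-34c (exact permutation p = 0.00057, adjusted p = 0.0308 over 54 pairs of a list and a name; rho 0.90, exact permutation p = 0.00456, adjusted p = 0.116). Without vehicle control replicate 4 and Printex 90 replicate 3 the r was 0.80, and without scaling it was -0.24. With miR-34b-5p the r was 0.91 (exact permutation p = 0.00243, adjusted p = 0.0656; rho 0.86, exact permutation p = 0.0107, adjusted p = 0.116), and -0.49 without scaling. With miR-449a it was 0.42 (exact permutation p = 0.292, adjusted p = 0.544; rho 0.50, exact permutation p = 0.216, adjusted p = 0.486), and -0.75 without scaling. The sum mostly reflects miR-200a, miR-200b, miR-200c, miR-141 and miR-429, which had the highest signals on the list. Their r with miR-34b-5p ran from 0.85 to 0.90, and that of miR-375 was 0.90. Other names followed miR-34b-5p less: the r was 0.095 for miR-31, 0.16 for miR-96, 0.32 for miR-203 and 0.43 for miR-183. The part of epithelial content in the values of miR-34b and miR-34c was not tested. In lung tissue, fewer multiciliated cells and less miRNA per cell cannot be told apart.

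miRNAs linked to p53, which activates miR-34a and miR-34b/c, gave 8 tested miRNAs of 9 named (miR-215 was not detected on any array). Of the 9, miR-143 and miR-145 are also on the smooth muscle list and miR-200c on the epithelial one. The mean was higher after Printex 90 for 2 and lower for 6, the median of the log2 differences was -0.04, and limma called 0 (0 at an unadjusted p under 0.05). On this list miR-107 (0.03) and miR-200c (0.09) were the higher ones, and miR-145 (-0.12) and miR-194 (-0.10) differed most in the other direction. The list's summed signal had an r of 0.70 with miR-34c (exact permutation p = 0.0488, adjusted p = 0.263; rho 0.74, exact permutation p = 0.0458, adjusted p = 0.2475). It was 0.88 without the 2 farthest arrays and -0.59 without scaling. With miR-34a the r was 0.16 (exact permutation p = 0.738, adjusted p = 0.945). The part of p53 in these values was not tested.

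Markers of other cells in a lung sample gave 0 calls in limma (0 at an unadjusted p under 0.05, beside 5.6% of all tested miRNAs). All names on the lists for endothelium (2), smooth muscle (2), mesenchymal cells (3), leukocytes (5) and erythroid cells (3) were detected on all arrays. Their summed signals overlapped between the groups, from 37.3 to 43.0 in controls and 34.4 to 42.3 after Printex 90 for endothelium, and from 19.7 to 46.9 and 21.7 to 30.6 for erythroid cells. Smooth muscle ran from 2.19 to 2.81 and 2.02 to 3.27, mesenchymal cells from 4.39 to 4.96 and 4.35 to 4.76, and leukocytes from 7.07 to 9.04 and 7.43 to 8.85. Striated and cardiac muscle ran from 0.391 to 1.92 in controls and 0.319 to 3.06 after Printex 90, with miR-208a, miR-208b and miR-499 detected on no array. With miR-449a its summed signal had an r of 0.72 (exact permutation p = 0.0389, adjusted p = 0.233; rho 0.71, exact permutation p = 0.0576, adjusted p = 0.259) and 0.50 without the 2 farthest arrays. For smooth muscle and miR-449a the r was 0.82 (exact permutation p = 0.0129, adjusted p = 0.206; rho 0.79, exact permutation p = 0.0279, adjusted p = 0.221) and 0.67 without the 2 farthest arrays. Other names had correlations of like size with the muscle sums. For miR-34b-3p the r was 0.74 with striated muscle (exact permutation p = 0.0348, adjusted p = 0.233; rho 0.86, exact permutation p = 0.0107, adjusted p = 0.116). With smooth muscle it was 0.75 for miR-34b-3p (exact permutation p = 0.0352, adjusted p = 0.233; rho 0.86, adjusted p = 0.116) and 0.81 for miR-34c* (exact permutation p = 0.0153, adjusted p = 0.206; rho 0.86, adjusted p = 0.116). The endothelial sum had an r of 0.74 with miR-34a (exact permutation p = 0.0281, adjusted p = 0.233; rho 0.38, exact permutation p = 0.36, adjusted p = 0.648). It was 0.13 without the 2 farthest arrays and 0.90 without scaling. The part of muscle or endothelium in the values of these names was not tested. The liver marker miR-122 ran from 0.0269 to 0.303 in controls and from 0.0172 to 0.439 after Printex 90, and the neuronal markers miR-124 and miR-9 were detected on no array. The median log2 difference was -0.15 for the endothelial, -0.08 for the smooth muscle, -0.0037 for the mesenchymal, -0.02 for the leukocyte, -0.25 for the erythroid and -0.74 for the striated muscle list, and miR-122 differed by 0.44. The largest of these had wide SEs: 0.91 for miR-1, 0.90 for miR-133a, 0.90 for miR-133b and 0.99 for miR-122. That of miR-206 was 0.13. Detected on 7 arrays, miR-122 had values below the floor of 0.0388, so the floor set part of its difference.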

How the data were processed

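Per the file headers, the deposited intensity of each spot was extracted with Agilent Feature Extraction (version 10.7.3.1, grid 021828), background-subtracted within each array and not normalized between arrays. Per the labels' protocols, a miRvana kit was used for RNA and Cy3 as the label. The authors' deposited table of log2 values served only as an alternative, since the sources used here do not say how it was processed.

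Control and outlier-flagged spots were dropped; none was saturated. A probe's signal is the mean of its spots, and a miRNA's the sum of its probes. A miRNA counted as detected where at least 50% of the spots of a probe were well above background. Arrays were divided by the 75th percentile of the 240 mouse miRNAs detected on all 8, and a floor of 0.0388 was set, the 5th percentile of detected signals. The members lay above this floor, miR-449b and miR-449c excepted. All 268 mouse miRNAs detected on 4 arrays or more were fitted with limma 3.58.1 (R 4.3.3; lmFit and eBayes, 2-sided, Benjamini-Hochberg over all tested). Correlations used all 40320 pairings. Precision is limited by the number of arrays.

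The members, lists, tests and rules for names were chosen with earlier results of these data known. All members and miR-34c* are named, with the 3 outside miRNAs of highest Pearson r for each detected member. The correlations with marker lists were chosen after seeing the data. Alternatives covered scaling, background, filter, probe summary, floor, outlier spots, spread model, array weights, the deposited table, the replicate block and leaving out each array. For the background alternative, normexp used the median spot signal, since the files hold no mean signal. Array names can be old, and the array files name no genome build.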

Additional observations from a re-analysis of the deposited data

How the results depend on the processing

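The results were recomputed under 23 alternatives, of which 8 leave out an array. No member passed the threshold in limma under any of them. All miRNAs past the threshold numbered 0 to 3 when an array was left out, the 3 without Printex 90 replicate 3, and 0 under the other alternatives. The family's median log2 difference of 0.14 was -0.00593 with array weights, where miR-34b-5p was -0.00593, miR-34c -0.00426 and miR-34c* -0.10. The median of all tested miRNAs was -0.12 without scaling. For miR-34a the log2 difference was 0.029 with the 75th percentile over all mouse miRNAs, 0.019 with normexp and 0.00593 in the authors' deposited table. For miR-34b-3p it was 0.018 with the 75th percentile over all mouse miRNAs, 0.12 with quantile normalization and 0.045 with normexp, and for miR-34c* -0.040 without scaling. Leaving out an array moved miR-34a from -0.085 to 0.057, miR-34b-3p from -0.13 to 0.036 and miR-34c* from -0.086 to 0.14. It moved miR-34b-5p from 0.024 to 0.25, miR-34c from 0.0045 to 0.23 and the family median from 0.0045 to 0.23, the lowest each without Printex 90 replicate 3. The cause was not tested.

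Member pairs past the threshold numbered 1, but 2 without scaling and 3 with normexp, and 1 to 4 when an array was left out (4 without Printex 90 replicate 3); miR-34b-5p with miR-34c was past it in all 18 alternatives run for correlations. Without scaling the r of miR-34a was 0.013 with miR-34b-3p, -0.60 with miR-34b-5p and -0.34 with miR-34c. The r of miR-34b-3p was then -0.15 with miR-34b-5p and -0.12 with miR-34c, and that of the epithelial sum -0.49 with miR-34b-5p, -0.24 with miR-34c and -0.75 with miR-449a. The r of miR-34a with miR-34b-5p and miR-34c was -0.38 and -0.41 with quantile normalization and -0.42 and -0.22 in the authors' deposited table, and with miR-34b-5p it was -0.10 with normexp. Leaving out an array moved the r of miR-34a from -0.32 to 0.13 with miR-34b-3p, from -0.53 to 0.56 with miR-34b-5p, from -0.37 to 0.64 with miR-34c and from -0.45 to 0.39 with miR-34c*. The epithelial sum and miR-34c stayed past the threshold in 5 of the 18 alternatives.

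Over all tested miRNAs, samples with the same replicate number did not deviate together in a consistent way (correlations of -0.13, -0.38, -0.47 and 0.44). These values cannot settle whether the numbers pair the samples. In both rows of the slide the replicate number was also the slide column. With the replicate number as a block, limma called 0 miRNAs (12 at an unadjusted p under 0.05), and the log2 difference was 0.33 for miR-449a (adjusted p = 0.777) and 0.15 for miR-34b-5p (adjusted p = 0.744). The block lowered the SE of miR-34c from 0.18 to 0.083 and of miR-34b-5p from 0.19 to 0.10. It also lowered that of miR-34b-3p from 0.12 to 0.067 and of miR-34c* from 0.17 to 0.076. The SE rose from 0.088 to 0.097 for miR-34a and from 0.32 to 0.33 for miR-449a. miR-449b and miR-449c had no signal above background, which limits any statement on them.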
